A study of Mus musculus with 21 samples.

Results

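The MYC, MAX and MXD network was taken as 10 genes, found by their symbols among the 41608 genes of a count table and an FPKM table from mouse embryonic fibroblasts (MEFs), and by the c-MYC peaks at their starts. The activators are Myc, Mycn and Mycl, the shared partner is Max, and the antagonists are Mnt, Mxd1, Mxd3, Mxd4, Mxi1 and Mga. All 10 were found in both tables, and 8 passed the filter on low counts, all but Mycn and Mycl. RNA came from immortalized MEFs that stably express V5-tagged GCN5 (a histone acetyltransferase, gene Kat2a) or LacZ, each given 10 nM siRNA for 2 days, either siHsf1, against the heat-shock transcription factor gene Hsf1, or siControl. Each of the groups siHsf1 GCN5, siControl GCN5, siHsf1 LacZ and siControl LacZ had 3 libraries, which the labels call triplicates without naming separate cultures, so p-values reflect library spread that may be technical. Occupancy by c-MYC came from CUT&RUN, where a nuclease tethered by an antibody cuts around the bound protein, in crosslinked MEFs in which Hsf1 was deleted by 7 days of 4-hydroxytamoxifen (CKO) or kept with 7 days of ethanol (WT). Its antibody is listed as one to c-Myc/N-Myc, and the 2 samples per genotype are represented by 1 peak list each.

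MYC proteins bind DNA only as dimers with MAX, mostly at the E-box CACGTG, and recruit histone acetyltransferases that raise transcription. MNT, the MXD proteins and MXI1 dimerise with the same MAX, bind the same E-boxes and recruit the SIN3 corepressor with its deacetylases, so the output of a shared site is set by which partner holds MAX. MGA also dimerises with MAX and belongs to the variant Polycomb complex PRC1.6. MYC is also known to repress its own gene in many non-transformed cells.

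The E-box was searched in the RefSeq promoter windows of GRCm38.p6, which run from 250 bases before a gene's start to 50 after it. Windows were held for 9 of the 10 genes, all but Myc, so Myc itself was not searched. CACGTG reads the same on both strands and was present in 3 of the 9 genes, Max, Mnt and Mxd4. It was present in 10.0% of 11835 promoters of tested genes and 7.15% of all 32851 promoters of the table. These shares count windows and not genes, and Mxi1 has several windows. The 3 windows are printed because each carries the site that MYC and its antagonists share, and because a c-MYC peak overlapped all 3 in the WT list and those of Max and Mnt in the CKO list. Each is written 5′ to 3′ on the strand of the gene with CACGTG in capitals. The Max window is chr12:76962199-76962498 on the minus strand, the Mnt window is chr11:74830674-74830973 on the plus strand, and the Mxd4 window is chr5:34187661-34187960 on the minus strand.
Max: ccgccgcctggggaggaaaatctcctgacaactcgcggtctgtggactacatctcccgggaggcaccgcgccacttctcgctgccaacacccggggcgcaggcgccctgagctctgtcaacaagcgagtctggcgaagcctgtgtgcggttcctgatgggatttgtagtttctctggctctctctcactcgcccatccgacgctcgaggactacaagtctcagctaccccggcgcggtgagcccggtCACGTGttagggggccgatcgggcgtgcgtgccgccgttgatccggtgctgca
Mnt: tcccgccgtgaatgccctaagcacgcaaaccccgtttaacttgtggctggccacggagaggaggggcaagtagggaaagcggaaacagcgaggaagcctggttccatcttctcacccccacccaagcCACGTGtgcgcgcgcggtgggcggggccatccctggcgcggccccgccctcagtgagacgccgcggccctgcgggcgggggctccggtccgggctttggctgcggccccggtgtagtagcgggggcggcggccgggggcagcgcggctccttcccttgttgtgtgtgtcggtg
Mxd4: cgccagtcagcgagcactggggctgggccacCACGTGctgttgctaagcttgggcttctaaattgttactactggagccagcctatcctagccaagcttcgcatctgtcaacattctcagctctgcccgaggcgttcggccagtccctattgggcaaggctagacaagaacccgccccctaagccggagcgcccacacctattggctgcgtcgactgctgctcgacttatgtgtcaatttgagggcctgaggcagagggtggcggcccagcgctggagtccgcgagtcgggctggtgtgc
Counting the start base as 1 and the base before it as -1, the first base of the E-box lay at -3 in Max, at -123 in Mnt and at -219 in Mxd4. In the promoters of Mycn, Mycl, Mxd1, Mxd3, Mxi1 and Mga these letters were not in the window. The heat-shock motif pair GAANNTTC, which also reads the same on both strands and does not overlap the E-box, was present in Mga alone, with its first base at -207, against 5.61% of promoters of tested genes and 7.86% of all promoters.

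Library depth differed by line, with 3.69 to 4.27 M (mega) gene counts in GCN5 libraries and 7.22 to 8.16 M in LacZ libraries, so depth and line cannot be told apart. Hsf1 stood at 68.1 to 74.7 CPM (counts per megacount, TMM-scaled, which sets libraries level for the average gene) in siHsf1 GCN5 against 121 to 138 CPM in siControl GCN5, and at 47.9 to 57.7 CPM in siHsf1 LacZ against 129 to 135 CPM in siControl LacZ libraries. Kat2a stood at 245 to 253, 234 to 263, 118 to 130 and 215 to 220 CPM in siHsf1 GCN5, siControl GCN5, siHsf1 LacZ and siControl LacZ libraries. The construct may be of another species, which no label states, so Kat2a does not check the GCN5 label and the line is named as labelled. Of 8 fibroblast markers 7 were detected and Thy1 was at 0 to 0.122 CPM, while Epcam, Adgre1 and Cd3e were at 0 in all 12 libraries. The summed fibroblast markers stood at 8370 to 8560 CPM in siHsf1 GCN5, 8070 to 8240 CPM in siControl GCN5, 9300 to 10700 CPM in siHsf1 LacZ and 6510 to 7210 CPM in siControl LacZ libraries. The 7 summed haematopoietic markers, nearly all Cd14 and Cd68, stood at 25.5 to 30.7, 23 to 26.9, 51.6 to 59.5 and 26.7 to 27.2 CPM in the same order of groups. The 4 summed neural markers, mostly Nes, stood at 491 to 513, 486 to 503, 393 to 450 and 492 to 509 CPM, and the 5 epithelial ones, mostly Krt18, at 33.1 to 36.8, 31.7 to 41.1, 44.2 to 55.3 and 46.8 to 62.6 CPM, again in that order. The fibroblast and haematopoietic sums were higher and the neural sum lower with siHsf1 in the LacZ line without overlap, and the epithelial sum was lower in the GCN5 line. Their part in the results on network genes was not tested. In bulk RNA, fewer cells of a type and less RNA per cell cannot be told apart.

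The network of these fibroblasts was one of Myc, Max and several repressors at lower levels, with Mycn and Mycl next to absent. By FPKM, which divides by transcript length and so allows genes to be compared, the means in siControl LacZ libraries were 57.5 for Myc, 16.3 for Max, 15.5 for Mxd3, 13.8 for Mxd4, 5.45 for Mga, 5.35 for Mxi1, 2.71 for Mnt and 1.19 for Mxd1. The ranges over libraries overlapped between Max and Mxd3, between Mxd3 and Mxd4 and between Mga and Mxi1, so the order within those pairs is not resolved. The Mxd3 and Mxd4 levels rest on short annotated lengths, 1734 and 1179 bp, against 6505 bp for Mnt and 6596 bp for Mxi1. Mycn, the neural and embryonal MYC gene, had 1 count in all 12 libraries together, in siControl LacZ. Mycl had 0 counts in siHsf1 GCN5, 1 in siControl GCN5, 1 in siHsf1 LacZ and 5 in siControl LacZ, each summed over 3 libraries. A count of 3 equals 0.368 to 0.812 CPM depending on the library, so levels of either gene under that were not detectable, a limit that covers counting error only.

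**Figure D1:**
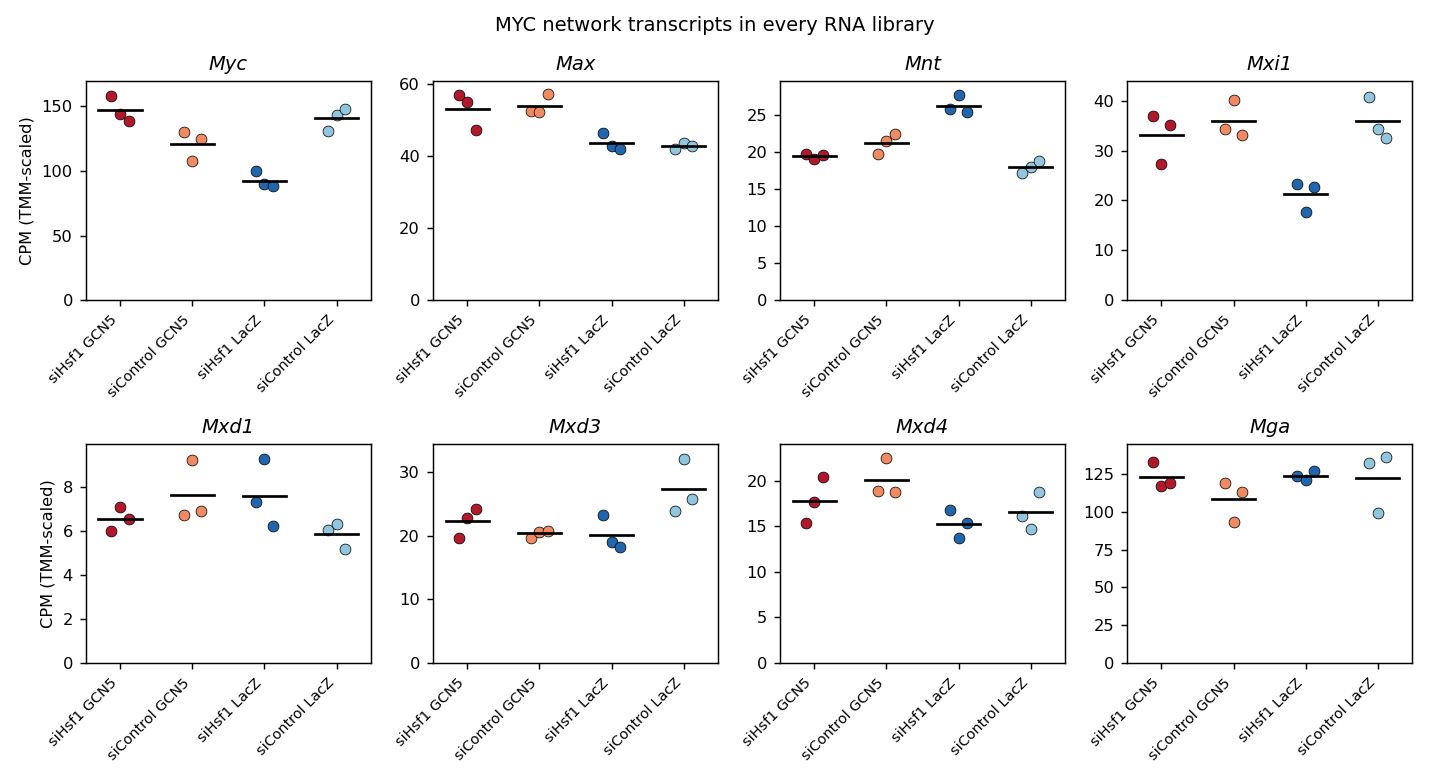
TMM-scaled CPM (linear axis from 0) of the 8 tested network genes in each of the 12 RNA libraries, with a point per library and a line at the group mean (n = 3). Myc and Mxi1 sit lowest and Mnt highest in siHsf1 LacZ libraries, while Max is higher in both GCN5 groups than in both LacZ groups on this scaling.

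With siHsf1 in LacZ cells, a comparison that asks how the network stands when HSF1 is reduced and no GCN5 is added, Myc, Mxi1 and Mxd3 transcripts were lower and Mnt transcripts higher relative to the average gene. Thus 4 of the 8 tested genes passed an adjusted p of 0.05 in edgeR's quasi-likelihood test, 1 higher and 3 lower, where 40.6% of all 12187 tested genes did (21.1% higher and 19.5% lower). That share is near the background, and the median change of the 8 genes, -0.05 on the log2 scale, was near that of all genes, 0.02. Scaling by the spiked ERCC transcripts in place of TMM called 7.02% of genes (6.03% lower), 121 higher and 735 lower against 2571 and 2373 with TMM, and moved the median of all genes to -0.35. With it 2 of the 8 were called, Myc and Mxi1, both lower. Knockdown in the GCN5 line called none of the 8, at a background of 0.164% of genes (20 genes by edgeR, 35 by DESeq2, and 1177 at an unadjusted p under 0.05), nor did spike-in scaling, at 0.041%.

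Myc, the growth-promoting activator (gene 17869, chromosome 15, 61985341 to 61990361, plus strand), stood at 99.7, 89.6 and 88.3 CPM in siHsf1 LacZ libraries against 131, 143 and 148 CPM in siControl LacZ libraries. All 3 knockdown libraries lay below all 3 controls. The log2 fold change was -0.60 ± 0.08 (SE, edgeR adjusted p = 7.2e-07), and with spike-in scaling it was -0.94 ± 0.32 (adjusted p = 0.049), or -0.59 relative to the shifted median of all genes. The spike-in call was lost when any of 4 single libraries was left out, with adjusted p-values of 0.26 and 0.28 without siHsf1 replicates 2 and 3 and 0.26 and 0.16 without siControl replicates 1 and 3. In the GCN5 line Myc stood at 158, 144 and 139 CPM with siHsf1 against 130, 108 and 125 CPM with siControl. Here the knockdown libraries lay above the controls without overlap, at a log2 fold change of 0.28 ± 0.08, which did not pass over all genes (edgeR adjusted p = 0.24, unadjusted p = 0.002). A fit of those 6 libraries alone gave the same 0.28 with an adjusted p of 0.021. Spike-in scaling gave 0.23 ± 0.32. How many of all genes separate without overlap was not computed, so such separations, for Myc and the genes below, are description alone.

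Max, the shared partner in the network (gene 17187, chromosome 12, 76937269 to 76962343, minus strand), stood at 46.4, 43 and 42.2 CPM in siHsf1 LacZ against 42.1, 43.6 and 42.8 CPM in siControl LacZ libraries. It stood at 57.2, 55 and 47.4 CPM in siHsf1 GCN5 against 52.7, 52.4 and 57.3 CPM in siControl GCN5 libraries. The siHsf1 and siControl libraries overlapped in both lines, with log2 fold changes of 0.03 ± 0.09 in LacZ and -0.03 ± 0.09 in GCN5. On spike-in scaling these were -0.32 ± 0.32 and -0.05 ± 0.32, neither called.

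Mnt, a broadly expressed MAX-bound repressor (gene 17428, chromosome 11, 74830781 to 74845725, plus strand), stood at 25.7, 27.6 and 25.4 CPM in siHsf1 LacZ against 17.1, 18 and 18.7 CPM in siControl LacZ libraries. Every knockdown library was above every control. The log2 fold change was 0.55 ± 0.10 (edgeR adjusted p = 0.00017), and on spike-in scaling it was 0.18 ± 0.33 (adjusted p = 0.77), or 0.52 relative to the median of all genes. The spike-in value turned to -0.08 without siHsf1 LacZ replicate 1. So a rise of Mnt was measured relative to other transcripts, while the spike-in fit was too imprecise to tell whether Mnt rose relative to the spike-in. In GCN5 libraries Mnt stood at 19.7, 19 and 19.5 CPM with siHsf1 against 19.7, 21.4 and 22.4 CPM with siControl, a log2 fold change of -0.13 ± 0.12 that was not called. Before rounding, the knockdown libraries lay just below the controls without overlap.

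Mxi1, a SIN3-recruiting repressor of the MXD family (gene 17859, chromosome 19, 53310414 to 53375810, plus strand), stood at 23.3, 17.6 and 22.8 CPM in siHsf1 LacZ against 40.7, 34.4 and 32.6 CPM in siControl LacZ libraries. The groups did not overlap, and the log2 fold change was -0.76 ± 0.13 (edgeR adjusted p = 3.6e-05). With spike-in scaling it was -1.12 ± 0.32 (adjusted p = 0.017), a call lost without siHsf1 replicate 2 or 3 or siControl replicate 1. In GCN5 libraries Mxi1 stood at 37, 27.3 and 35.2 CPM with siHsf1 against 34.3, 40.2 and 33.2 CPM with siControl, which overlapped (-0.11 ± 0.14, not called). Over 9643 bp Mxi1 shares its locus with the lncRNA gene Gm30541 on the opposite strand, and since it is not stated whether counting used strand, reads of the pair cannot be told apart there.

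Mxd3, an MXD repressor linked to proliferating cells (gene 17121, chromosome 13, 55325168 to 55330046, minus strand), stood at 23.2, 19 and 18.2 CPM in siHsf1 LacZ against 23.9, 32.1 and 25.8 CPM in siControl LacZ libraries. The lowest control was just above the highest knockdown library, and the log2 fold change was -0.44 ± 0.12 (edgeR adjusted p = 0.006), or -0.75 ± 0.33 on spike-in scaling (adjusted p = 0.15). Without siControl LacZ replicate 2 it was -0.31 (adjusted p = 0.058). Mxd3 overlaps Prelid1 on the opposite strand by 105 bp. Prelid1, at a mean of 350 CPM, changed by -0.35 in the same comparison, and its part in the Mxd3 count was not tested. In the GCN5 line Mxd3 stood at 19.7 to 24.2 CPM with siHsf1 against 19.7 to 20.8 CPM with siControl, a change of 0.13 ± 0.15 that was not called.

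Mxd1, the MAD1 repressor induced when many cell types differentiate (gene 17119, chromosome 6, 86647044 to 86669326, minus strand), was the lowest of the tested genes, at 7.32, 9.31 and 6.23 CPM in siHsf1 LacZ against 6.05, 6.32 and 5.21 CPM in siControl LacZ libraries. Its change of 0.38 ± 0.20 (-0.03 on spike-in scaling) was not called, and over 9111 bp it shares its locus with the lncRNA gene Gm38850 on the same strand. Mxd4 (gene 17122, chromosome 5, 34176580 to 34187710, minus strand) stood at 16.8, 13.7 and 15.4 CPM in siHsf1 LacZ against 16.2, 14.7 and 18.8 CPM in siControl LacZ libraries, overlapping, at -0.12 ± 0.14. Mga (gene 29808, chromosome 2, 119871643 to 119970129, plus strand) stood at 124, 121 and 127 CPM in siHsf1 LacZ against 132, 98.9 and 136 CPM in siControl LacZ libraries, also overlapping, at 0.02 ± 0.10. In the GCN5 line the libraries of siHsf1 and siControl overlapped for these 3 genes, at 6.01 to 7.09 against 6.76 to 9.23 CPM for Mxd1, 15.4 to 20.4 against 18.8 to 22.5 CPM for Mxd4 and 117 to 133 against 93.1 to 119 CPM for Mga. Their changes were -0.22 ± 0.23, -0.17 ± 0.15 and 0.18 ± 0.11, none called.

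**Figure D2:**
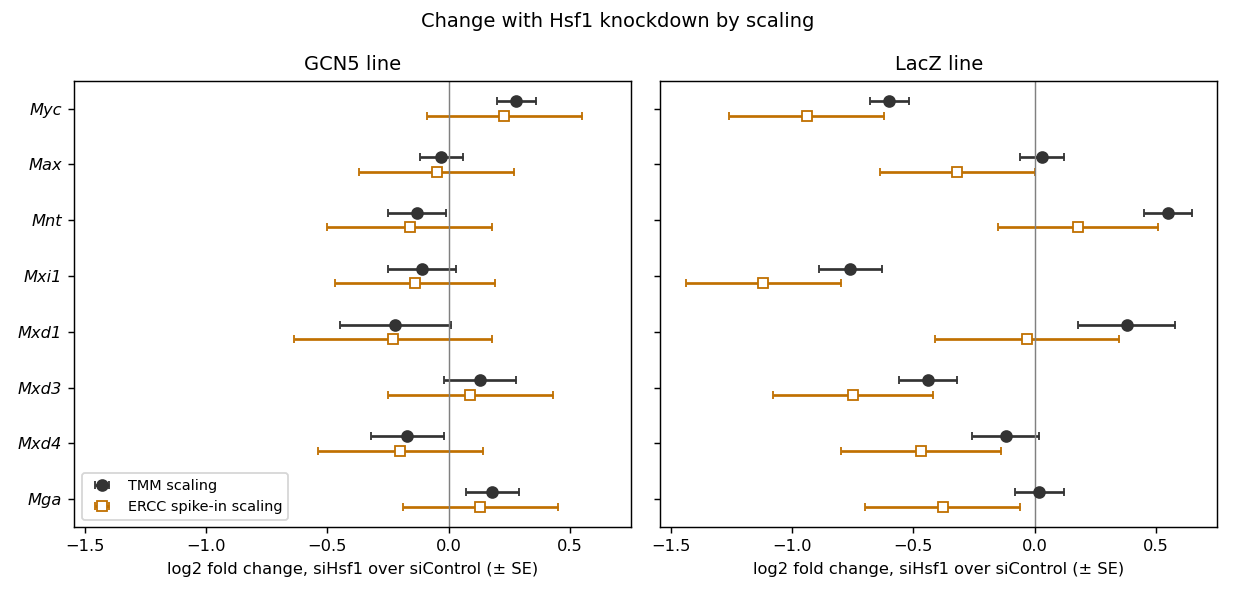
Log2 fold change of siHsf1 over siControl (horizontal axis) for the 8 tested network genes in the GCN5 and LacZ lines, with filled circles for TMM and open squares for ERCC spike-in scaling and bars of ± 1 SE from the edgeR fit. In LacZ all 8 squares lie left of their circles, with Mnt at 0.55 by TMM and 0.18 by spike-in and Myc at -0.60 and -0.94.

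Under siControl, which asks what the GCN5 line itself differs in, Max was the gene called of the 8, at a background of 9.6% of genes called by edgeR (5.45% higher). It stood at 52.4 to 57.3 CPM in siControl GCN5 against 42.1 to 43.6 CPM in siControl LacZ libraries (log2 0.34 ± 0.09, adjusted p = 0.018). On spike-in scaling, which called 1.5% of genes and moved the median of all genes to -0.40, the Max value was -0.05 ± 0.32 and not called. So a higher Max was measured relative to other genes. The spike-in fit was too imprecise to tell whether Max was also higher relative to the spike-in. The Max call was lost in 2 of 6 fits that left out a library and with DESeq2. Myc was lower in each siControl GCN5 library, at 108 to 130 CPM, than in each siControl LacZ library, at 131 to 148 CPM, without passing the test (-0.21 ± 0.08, edgeR adjusted p = 0.095). Mxd3 likewise lay lower without overlap (-0.42 ± 0.14, edgeR adjusted p = 0.05 after rounding, not called). Mnt (0.24 ± 0.12) and Mxd1 (0.38 ± 0.22) lay higher without overlap and were not called either, and on spike-in scaling they stood at -0.15 and -0.03. The share of all genes without overlap was not computed, so these separations are description alone.

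Under siHsf1, where the comparison asks how GCN5 cells differ from LacZ cells once Hsf1 is reduced, Myc, Mxi1 and Max were higher and Mnt was lower in the GCN5 line by TMM. These 4 of 8 genes stand beside a background of 44.8% of genes (22.3% higher and 22.6% lower). Myc stood at 139 to 158 CPM in siHsf1 GCN5 against 88.3 to 99.7 CPM in siHsf1 LacZ libraries (log2 0.67 ± 0.08, edgeR adjusted p = 1.9e-07). Mxi1 stood at 27.3 to 37 CPM against 17.6 to 23.3 CPM in the same groups (0.65 ± 0.13, edgeR adjusted p = 0.00037). The Mnt change was -0.44 ± 0.11 (edgeR adjusted p = 0.0027) and that of Max 0.28 ± 0.09 (edgeR adjusted p = 0.015). The libraries of the groups did not overlap for these 4 genes. For all genes the share without overlap was not computed, so this is description alone. The Max call was lost without siHsf1 LacZ replicate 3 (adjusted p = 0.058) and without siHsf1 GCN5 replicate 1 (adjusted p = 0.089). With spike-in scaling the Myc, Mxi1, Mnt and Max values were 0.59, 0.54, -0.48 and 0.22, and none of the 8 was called, at 5.44% of all genes.

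The difference between the lines in their response to siHsf1 was tested by the interaction term, which is the siHsf1 change in GCN5 minus that in LacZ. By TMM it was 0.88 ± 0.11 for Myc (edgeR adjusted p = 2.4e-06), -0.68 ± 0.16 for Mnt (0.0034), 0.65 ± 0.19 for Mxi1 (0.015) and 0.57 ± 0.19 for Mxd3 (0.035). These 4 of 8 genes stand against a background of 21.9% of genes called (11% higher and 10.9% lower). Spike-in scaling gave 1.18 ± 0.45, -0.33 ± 0.47, 0.98 ± 0.46 and 0.84 ± 0.47 for the 4 genes in that order, and called none of the 8, at 0.394% of all genes. It moved the all-gene median to 0.32, and relative to it the values were 0.85 for Myc, -0.65 for Mnt, 0.66 for Mxi1 and 0.51 for Mxd3. The Mxd3 call was lost in 8 of 12 fits that left out a library and with DESeq2 (adjusted p = 0.083), and that of Mxi1 was lost without siHsf1 GCN5 replicate 1 (adjusted p = 0.055). All comparisons draw on the same 4 groups, so their values are not independent of each other.

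Since Myc and its antagonists compete for Max, the activator and the repressors were set against each other within each library, where library scaling cancels out. The summed FPKM of the 5 SIN3-recruiting repressors Mnt, Mxd1, Mxd3, Mxd4 and Mxi1 averaged 36.6 ± 3.2 in siHsf1 GCN5, 38.2 ± 2.7 in siControl GCN5, 32.5 ± 2.8 in siHsf1 LacZ and 38.5 ± 1.4 in siControl LacZ libraries (SD, n = 3 each). The ratio of Myc to this sum was 1.92, 1.64 and 1.41 in siHsf1 GCN5 against 1.46, 1.07 and 1.38 in siControl GCN5 libraries, which overlap. It was 1.13, 1.19 and 1.14 in siHsf1 LacZ against 1.45, 1.48 and 1.55 in siControl LacZ libraries, where every knockdown library was below every control. The ratio was thus lowest in siHsf1 LacZ by mean, although 1 siControl GCN5 library, at 1.07, was below it. No p is given for these sums, because the genes were chosen with results of these data known.

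Single pairs were read in the same way. Myc over Mnt, the 2 genes that moved apart, averaged 20.6 ± 1.3 in siHsf1 GCN5, 15.5 ± 2.1 in siControl GCN5, 9.58 ± 0.85 in siHsf1 LacZ and 21.2 ± 0.38 in siControl LacZ libraries (SD, n = 3 each). Myc over Max averaged 2.99 ± 0.17, 2.41 ± 0.22, 2.27 ± 0.036 and 3.53 ± 0.19 in the same order. Myc over Mxi1, both of which fell in siHsf1 LacZ, averaged 12.4 ± 1.9, 9.40 ± 1.7, 12.1 ± 1.7 and 10.9 ± 1.9. Within the repressors, Mnt made up 12.1% ± 1.4 of the summed FPKM in siHsf1 LacZ against 7.02% ± 0.2 in siControl LacZ libraries, while Mxi1 made up 9.65% ± 1.2 against 13.9% ± 2.2 (SD, n = 3 each). In GCN5 libraries Mnt made up 8.03% ± 0.76 with siHsf1 against 8.36% ± 0.68 with siControl. Mxd3 and Mxd4 were the major part of the sum in each group, at 34.3% and 40.4% in siHsf1 GCN5 and at 40.0% and 35.9% in siControl LacZ libraries. These ratios are of RNA, and protein was not measured in these files.

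**Figure D3:**
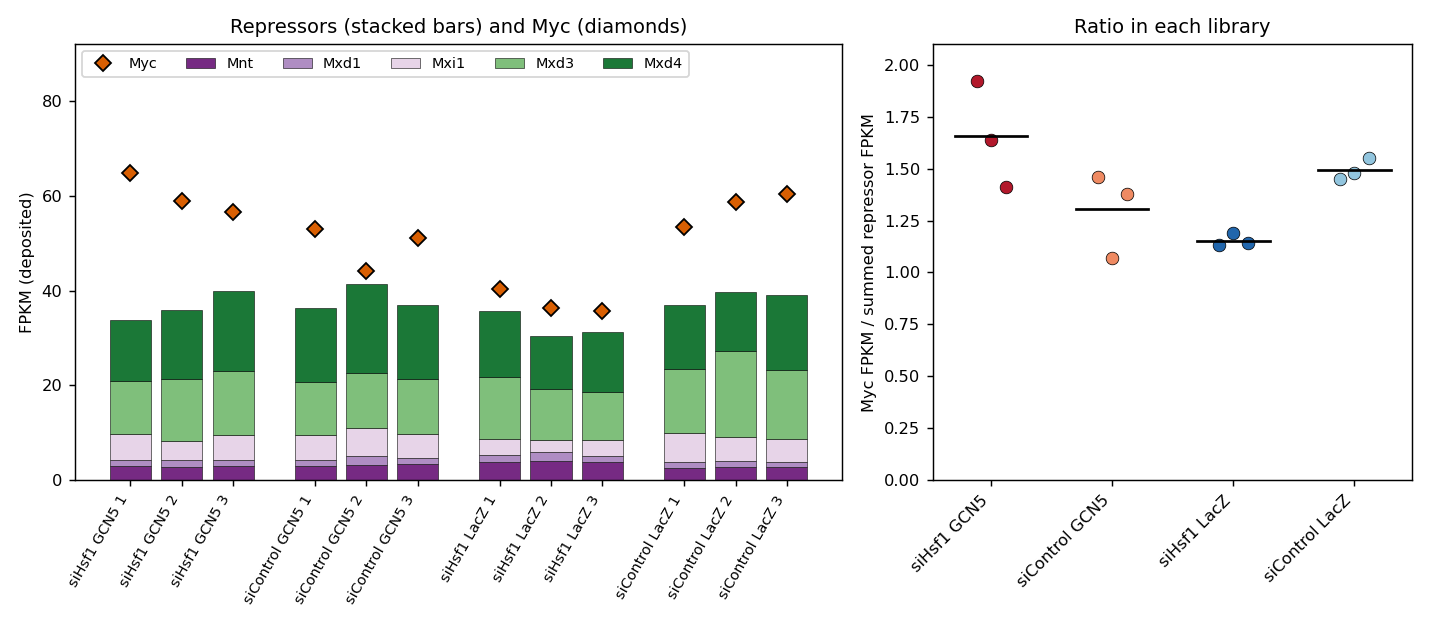
Left, deposited FPKM of the 5 SIN3-recruiting repressors as stacked bars and of Myc as diamonds in each RNA library; right, Myc FPKM divided by the summed repressor FPKM, with a point per library and a line at the group mean (n = 3). The ratios of siHsf1 LacZ libraries, 1.13 to 1.19, lie below those of siControl LacZ libraries, 1.45 to 1.55.

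The cofactors that the network acts through were read from lists of known partners. Of 12 MYC coactivators tested, 4 were lower and 2 higher in siHsf1 LacZ than in siControl LacZ libraries, with a list median of 0.07 (log2) against 0.02 for all genes. That count is to be read beside the 40.6% of all tested genes called in this comparison (21.1% higher and 19.5% lower), as are those of the lists that follow, and none is called particular to its list. The lower ones were Ruvbl2 (-0.93 ± 0.07), Kat2a (-0.80 ± 0.06) and Ruvbl1 (-0.76 ± 0.07), which encode an ATPase pair of the TIP60 complex and the GCN5 acetyltransferase, and Wdr5 (-0.38 ± 0.08), a chromatin scaffold that binds MYC. Ccnt1, the cyclin of P-TEFb, and Crebbp were higher, at 0.42 ± 0.11 and 0.36 ± 0.12, and on spike-in scaling stood at 0.00 and -0.04. Spike-in scaling called 3 of the 12 lower and none higher. Of 15 SIN3 and NCOR corepressor genes, through which the MXD proteins act, 3 were higher and 3 lower, with Suds3 (-0.35), Rbbp7 (-0.27), Arid4b (0.35) and Arid4a (0.42) at the smallest p-values, and none was called on spike-in scaling.

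Of 12 tested PRC1.6 partners of MGA, 3 were lower in siHsf1 LacZ libraries, Tfdp1 (-0.79 ± 0.05), the dimer partner of E2F6, Cbx3 (-0.45 ± 0.07), a heterochromatin protein, and Wdr5. Of 10 tested genes of MYC protein turnover, 2 were higher and 3 lower, again beside 40.6% of all genes. Aurka, a kinase known to stabilise N-MYC, was at -0.83 ± 0.07, Usp36 at -0.23 ± 0.08 and Usp37 at 0.36 ± 0.08. Of 3 tested genes of the MLX branch and MIZ1, none was called, with Mlxip at 0.16 and Zbtb17, which encodes the MIZ1 partner of MYC, at 0.13. Of 10 cell cycle genes 6 were lower and 1 higher, at a median of -0.44, with Ccna2 at -0.57, Top2a at -0.55, Cdk1 at -0.50 and Ccnb1 at -0.58. On spike-in scaling 1 PRC1.6 gene, 1 turnover gene and 1 cell cycle gene were called lower and none of the other genes of these lists was called. The cell cycle genes moved with the same knockdown as Myc and Mxd3, and their part in those results was not tested. In the GCN5 line no gene of the 6 lists was called with siHsf1.

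By the interaction term, 3 coactivators were higher, Ruvbl2 at 0.90 ± 0.10, Kat2a at 0.81 ± 0.09 and Ruvbl1 at 0.69 ± 0.11. Here and in the line comparison with siHsf1, Kat2a reads in the GCN5 line may include those of the construct. These cannot be told apart from reads of the cells' own gene. Of the corepressors 2 were lower, Sin3b at -0.30 ± 0.10 and Sap18 at -0.32 ± 0.11. Tfdp1 at 0.83 ± 0.08 and Cbx3 at 0.54 ± 0.10 of PRC1.6, and Aurka at 0.81 ± 0.09, were also higher, while 5 cell cycle genes were higher and 1 lower, where 21.9% of all genes were called. None of the list genes was called on spike-in scaling. With siHsf1, GCN5 over LacZ libraries had 4 coactivators higher and 2 lower, 4 corepressors higher and 3 lower, 5 PRC1.6 genes higher, 2 turnover genes higher and 1 lower, 6 cell cycle genes higher and 3 lower, and Mlx higher, where 44.8% of all genes were called. On spike-in scaling no gene of the 6 lists was called there. With siControl, Mlx (0.24 ± 0.07, edgeR adjusted p = 0.04) was the gene called of all 6 lists, and on spike-in scaling its value was -0.16 and not called.

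Among 9590 genes averaging log2 CPM 3 or more, those whose TMM-scaled log2 CPM followed Myc most closely over the 12 libraries were Nup107 (Pearson r = 0.947), Xpot (0.943), Myef2 (0.938), Azin1 (0.935) and Gtf3a (0.934). They encode a nuclear pore protein, a tRNA export factor, a myelin gene regulator, a regulator of polyamine synthesis and an RNA polymerase III factor. Within the network r with Myc was -0.874 for Mnt, 0.702 for Mxi1, -0.596 for Mxd1, 0.517 for Mxd3, 0.382 for Max, 0.229 for Mxd4 and 0.0939 for Mga. These values describe the 12 libraries, which fall into 4 groups and share scaling and depth by line, and carry no p.

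The c-MYC peak lists, SEACR stringent calls against IgG by their names, on mm10 (GRCm38) coordinates as for the genes, differ greatly in size, with 6386 peaks over 11.5 Mb in CKO and 220037 peaks over 510.0 Mb in WT cells. With 1 list per genotype there is no replicate check, and whether samples were pooled or how signal was scaled is not stated, so signals were read within a list only and absence from the shorter list is not read as absence of binding. Within 1000 bp of their annotated starts, 5 of the 10 genes had a peak in the CKO list, Myc, Max, Mnt, Mxd3 and Mxi1, beside 35.2% of 12153 tested genes with a position. In the WT list 8 of 10 did, all but Mycn and Mycl, beside 77.3%. Both shares cover tested genes alone, and Mycn and Mycl were not tested. Of the 8 tested network genes, 5 had a peak in the CKO list and all 8 in the WT list. All 5 genes with a CKO peak also had a WT peak, and 34.2% of tested genes had both. When the WT list was cut to its 6386 peaks of highest total signal, 3 of the 8 tested network genes kept a peak, Myc, Mnt and Mxi1, against 10.8% of tested genes.

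**Figure D4:**
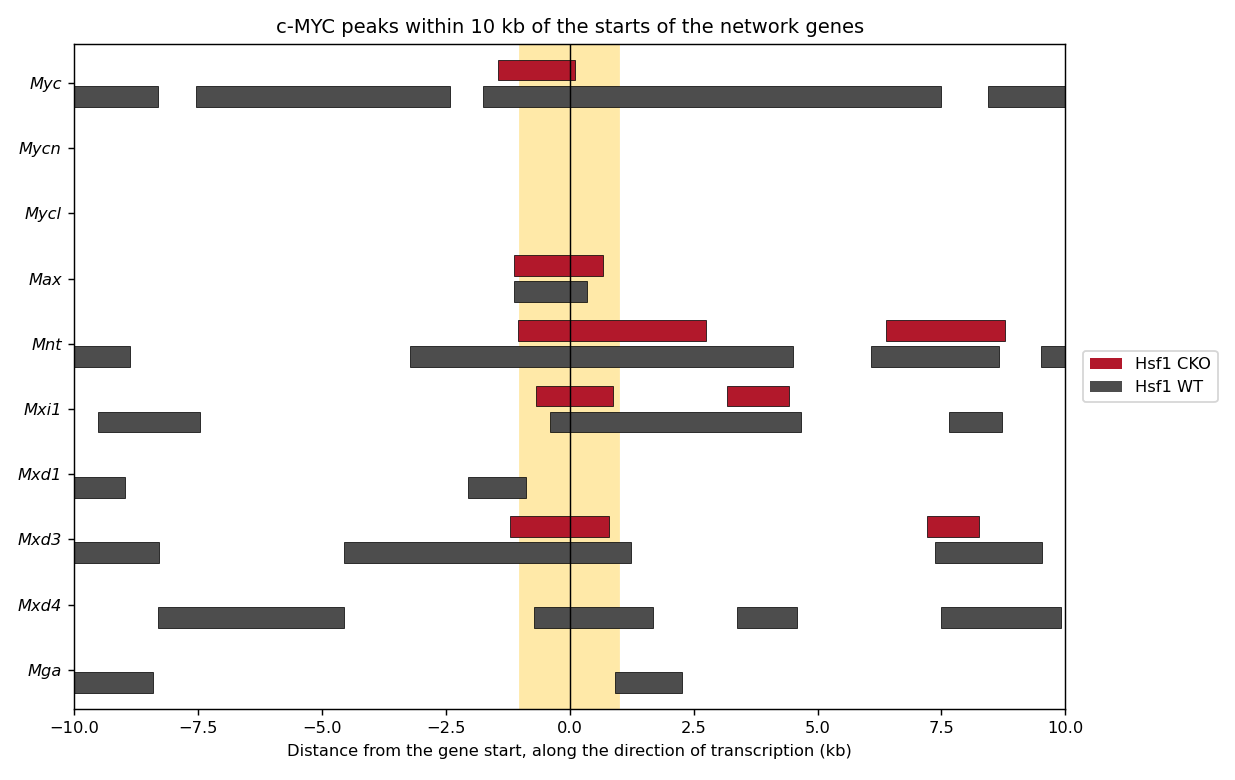
Peaks of the Hsf1 CKO list (upper bar of each pair) and the Hsf1 WT list (lower bar) by distance in kb from the annotated start of each network gene, along the direction of transcription, with the window of 1000 bp either side shaded. Bars show position and length alone, and 5 genes have a CKO peak in the window against 8 with a WT peak.

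The Mnt start held the strongest peak of the network in both lists. Its CKO peak (chr11:74829726-74833530) had a total signal, which is the authors' coverage summed over the peak, of 16.5, rank 7 of 6386 in its list, where the median of peaks at the starts of tested genes was 2.63. Its WT peak (chr11:74827563-74835293) had 37.2, rank 478 of 220037, where that median was 6.33. Maximal coverage within each list came in whole steps (within 5%), and the Mnt maxima were 58 steps in CKO and 54 in WT, against list medians of 10 and 6. The stretch of maximal coverage was centred 133 bases before the start in the CKO list (-133) and 115 before it in the WT list (-115), measured from the start in the count table, 74830781, where the printed promoter has its start at 74830924.

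At its own gene c-MYC had a low but listed peak in CKO cells and a broad one in WT cells. The CKO peak at Myc (chr15:61983886-61985438) had a total signal of 2.09, rank 3962 of 6386, and a maximum of 9 steps. The WT peak (chr15:61983582-61992841) ran over 9260 bp, across the whole gene, with a total of 24.9, rank 1447 of 220037 and a maximum of 10 steps, where the list median is 6. Counting the gene and 10 kb either side, there was 1 peak in the CKO list and there were 6 in the WT list. The same counts, CKO then WT, were 1 and 1 at Max, 2 and 6 at Mnt, 0 and 4 at Mxd1 and 2 and 3 at Mxd3. They were 1 and 5 at Mxd4, 2 and 10 at Mxi1 and 1 and 17 at Mga. With lists so unlike in length, these counts are not read as a loss of binding at Myc. Max had peaks of 3.61 (14 steps) in CKO and 5.51 (16 steps) in WT, both over the promoter with its E-box. Mxd3 had peaks of 4.17 (15 steps) in CKO and 13.0 (13 steps) in WT. Mxi1 had a peak of 1.6 (7 steps, rank 6132) near the bottom of the CKO list at its start and a WT peak of 14.8 (18 steps) that runs past the start into the gene. The WT maximum was centred 3679 bp after the start, where a second CKO peak of higher total, 3.63, ran from 3181 to 4429 bp after the start.

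Mxd1, Mxd4 and Mga had peaks at their annotated starts in the WT list alone. That of Mxd4, which overlaps its E-box promoter, had a total of 5.42 and 7 steps. Those of Mxd1 (2.41) and Mga (2.52) were weak, and their edges lay 875 and 912 bp from the start. Mga has another RefSeq start at position 119897228, inside the gene as the count table gives it, and there both lists held a clear peak, of 6.31 (32 steps, rank 333) at chr2:119896836-119898505 in CKO and of 16.4 (26 steps, rank 4470) in WT. The promoter window searched for Mga is the one at this start. Mycn and Mycl, next to silent in RNA, had no peak within the gene or 10 kb of it, the nearest WT peaks lying 76669 and 18711 bp from their starts. The 4 genes called in LacZ knockdown, Myc, Mnt, Mxi1 and Mxd3, all had peaks in both lists, where 34.2% of tested genes did. So did Max, and Mga at its other RefSeq start, neither of which was called there. Whether called genes had peaks more often than others was not tested. The RNA comes from siRNA in LacZ and GCN5 lines and the peaks from deletion of Hsf1, so the 2 measurements were not made in the same cells.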

How the data were processed

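The authors deposited whole-number counts per gene with 92 ERCC spike-in transcripts, FPKM per gene, and 1 c-MYC peak list per Hsf1 genotype in which the signal is coverage summed over a peak and a score is its maximal coverage, both as the authors made them. Per the submitters' processing notes the tools were HISAT2, Bowtie2, SEACR and DESeq2 on GRCm38 or mm10. No counting program, strand setting or version is given in the sources used here. Of 21 samples, 4 (2 siMyc and 2 siControl without a line label) were not analysed here.

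Counts were tested with edgeR 4.0.16 in R 4.3.3: TMM scaling, filterByExpr with a minimum count of 10, robust quasi-likelihood fit of 4 group means over 12 libraries with 8 residual degrees of freedom, two-sided, Benjamini-Hochberg adjustment over 12187 genes, called at an adjusted p under 0.05. TMM gives change relative to the average gene. Scaling by the 23 ERCC transcripts of subgroup B stands beside each call. That subgroup list was written from general knowledge. The labels name different ERCC mixes for siHsf1 and siControl, yet the ratio of subgroup A to B was 1.36 to 1.54 in all libraries. ERCC took 0.711% to 1.65% of counts, and the common biological coefficient of variation was 0.274 for spike-in and 0.089 for TMM. FPKM ratios, peak overlap (at least 1 bp) and motif counts are descriptions. DESeq2 1.42.0, other filters, windows and left-out libraries were alternatives.

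Members, lists and tests were chosen with earlier results of these data known. All 10 genes are named throughout; of each partner list up to 4 genes with the smallest p are named where any passes, otherwise up to 2, and those most like Myc are the 5 of highest Pearson r on log2 CPM (prior count 2). Some genes of the lists are not reported here by name.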

Additional observations from a re-analysis of the deposited data

Results flagged for a closer look

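The siHsf1 change differed between the lines by the interaction term of edgeR (GCN5 minus LacZ, TMM scaling) for 4 of the 8 tested network genes, where 21.9% of all tested genes were called. The difference was 0.88 for Myc (0.28 in GCN5, -0.60 in LacZ), -0.68 for Mnt (-0.13 and 0.55), 0.65 for Mxi1 (-0.11 and -0.76) and 0.57 for Mxd3 (0.13 and -0.44). The Mxd3 call was lost in 8 of 12 fits that left out a library and with DESeq2. With spike-in scaling and no replicate block none of these differences was called, while with the block those of Myc and Mxi1 were. Library depth coincides with the line.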

How the results depend on the processing

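With ERCC scaling the genes called numbered 856 (siHsf1 in LacZ), 5 (siHsf1 in GCN5), 183 (line, siControl), 663 (line, siHsf1) and 48 (interaction), and network genes called 2 in the first and 0 in the others. The split moved to 66 higher and 117 lower for the line with siControl (664 and 506 by TMM), 222 and 441 for the line with siHsf1 (2712 and 2753) and 4 and 1 for siHsf1 in GCN5 (8 and 12). Directions reversed for Max in the line with siControl, at -0.05, and -0.04 with a replicate block added, and for Mnt with siHsf1 in LacZ, at -0.08 without siHsf1 replicate 1 on ERCC scaling, an alternative chosen after seeing the data. ERCC scaling without 1 LacZ library called 3337, 319 and 167 genes without siHsf1 replicates 1, 2 and 3 and 230, 1488 and 363 without siControl replicates 1, 2 and 3, with 3, 0, 0, 0, 2 and 1 network genes. For siHsf1 in GCN5, 84 genes were called with no filter, 35 with DESeq2 and 262 with 6 libraries, the last including 1 network gene, Myc. For the line with siControl, network genes called were 2 with no filter, Max and Mxd3, among 1279 genes called, and 0 with DESeq2, among 877. Leaving out each library gave 4259 to 4765 genes and 3 to 4 network genes in LacZ knockdown, 4 to 12 and 0 in GCN5 knockdown, 800 to 1312 and 0 to 2 for the line with siControl, 4710 to 4974 and 3 to 4 for the line with siHsf1, and 2143 to 2807 and 3 to 4 for the interaction. The Myc and Mnt calls held in each of these TMM fits. Without siControl LacZ replicate 2, Mga was called for the line with siControl (-0.30, edgeR adjusted p = 0.012) and for the interaction (0.29, edgeR adjusted p = 0.048). Without siControl LacZ replicate 1, Mxd3 was called for the line with siControl (-0.51, edgeR adjusted p = 0.034). With Mga among the repressors, the ratio of Myc to their sum was 0.988 in siHsf1 LacZ and 1.31 in siControl LacZ libraries, and from TMM-scaled counts not divided by length it was 1.02 and 1.36. The CKO peaks above their median total signal kept 3 network genes, beside 2553 of 12153 tested genes. The WT peaks above their median kept 6 network genes, beside 7849 of 12153 tested genes. The WT list at the length of the CKO list, chosen after seeing the data, kept 3, beside 1307 of 12153 tested genes. The cause of these changes was not tested.

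Shared replicate numbers showed little pairing of the TMM-scaled libraries. Residuals of same-numbered libraries correlated at -0.062 to 0.101 (median 0.0325) and of others at -0.076 to 0.061 (median -0.0155). These residuals do not check for pairing in the spike-in. A replicate block changed none of the network calls by TMM and called 33 genes for siHsf1 in GCN5. In the LacZ line the ERCC subgroup B share was ordered alike by number, at 0.177%, 0.356% and 0.248% in siHsf1 and 0.142%, 0.239% and 0.19% in siControl replicates 1, 2 and 3. With the block and ERCC scaling, 3661 genes and 3 network genes (Myc, Mxi1 and Mxd3) were called for siHsf1 in LacZ, 8 and 0 for siHsf1 in GCN5, 1083 and 1 (Mxd3) for the line with siControl, 1784 and 1 (Myc) for the line with siHsf1, and 855 and 2 for the interaction, Myc at 1.26 (edgeR adjusted p = 0.0024) and Mxi1 at 0.98 (0.037).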
